A study of Mus musculus with 3 samples.

Results

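The 56 genes described here encode actin itself and the proteins that store, nucleate, elongate, cap, sever, bundle and anchor its filaments, or direct those that do. They were chosen by name, with earlier results of these data known. The list spans the cytoplasmic actins, thymosins, profilins, cofilins, the Arp2/3 and WAVE complexes, formins, capping protein, tropomyosins, spectrins, adducins and small GTPases. In the expression table of 39377 rows, 56 of 56 genes were found. Their levels were measured by RNA-seq of total RNA from the hippocampus, a tissue of mixed cell types, taken on postnatal day 14 from C57BL/6 mice of WT (wild-type) genotype. The study supplied 1 group of 3 libraries, called libraries 1, 2 and 3, with no treatment and no mutant group. The labels do not say whether different animals were used. The p-values therefore rest on the spread among these 3 samples, part of which may be technical. The fits (limma) draw each gene's spread toward that of all tested genes, and each SE from them includes that step. Since there was 1 group, genes were compared with each other inside the same libraries. In bulk tissue, fewer cells of a type and less RNA per cell cannot be told apart.

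Depth, estimated from the steps between low values, was about 3740000, 4140000 and 5890000 fragments in libraries 1, 2 and 3. FPKM values, fragments scaled by transcript length and by the mapped fragments of the library, are a level per length. Genes can thus be set beside each other, although GC content and mappability also enter. The best fit of depth took 280, 260 and 240 bases off each length in libraries 1, 2 and 3. Such a scaling raises short transcripts more than long ones. Markers of hippocampal neurons were present in each library, with 7 of 7 at 1 FPKM or more. Markers of the choroid plexus, which lies against the hippocampus, summed to 397, 1084 and 1309 FPKM in libraries 1, 2 and 3, and Ttr carried nearly all of that sum. Markers of immature neurons summed to 1205, 975 and 1054 FPKM and 7 of 7 were highest in library 1. Tubb3 (340, 255 and 326 FPKM) and Stmn2 (758, 643 and 660 FPKM) carried most of that sum. Hippocampal neuron markers summed to 1431, 1327 and 1332 FPKM, with 5 of 7 highest in library 1. Astrocyte markers summed to 1236, 1461 and 1416 FPKM, with the lowest sum in library 1. Microglia markers summed to 119, 135 and 129 FPKM.

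Actin exists as a pool of monomers and as filaments that grow at one end and are taken apart at the other. Thymosins hold monomers in reserve, profilins hand them to growing ends, the Arp2/3 complex and formins start new filaments, and cofilins cut old ones. In the hippocampus this turnover shapes growth cones, migrating neurons and the dendritic spines that carry most excitatory synapses, and in the second postnatal week spines and synapses are being formed.

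Actb and Actg1, the cytoplasmic β- and γ-actin genes, encode nearly identical proteins, and the start of their coding sequences is shown because it holds codons in which the proteins differ. Capitals mark the bases that differ between both sequences, which are read from the start codon in the GENCODE M21 transcripts.
Actb: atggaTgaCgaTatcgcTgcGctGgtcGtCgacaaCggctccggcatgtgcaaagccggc
Actg1: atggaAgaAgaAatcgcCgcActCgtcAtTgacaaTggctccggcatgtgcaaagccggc
Over the full coding sequences, 997 of 1125 positions were identical, which is 88.6%. No stretch of 100 bases was shared between the transcripts of both genes. The thymosin genes Tmsb4x and Tmsb10 are shown whole, because these short messages were the most abundant of the 56 and were far less alike, with 92 of 132 coding positions identical (69.7%).
Tmsb4x: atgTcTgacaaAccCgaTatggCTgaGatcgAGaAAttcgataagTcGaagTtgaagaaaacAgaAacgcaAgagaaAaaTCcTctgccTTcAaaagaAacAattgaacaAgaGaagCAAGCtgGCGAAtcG
Tmsb10: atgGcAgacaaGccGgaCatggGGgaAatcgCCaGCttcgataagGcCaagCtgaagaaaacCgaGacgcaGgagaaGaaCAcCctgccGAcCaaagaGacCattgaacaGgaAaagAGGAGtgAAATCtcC

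As a group the 56 genes were abundant. Their means ran from 1.65 to 4458 FPKM with a median of 105 FPKM, while the 13337 genes whose mean reached 1 FPKM had a median of 10.5 FPKM. Of the 56, 30 reached 100 FPKM (53.6%), against 7.44% of all tested genes. Each gene was then tested against the median of its own library on the log2(FPKM + 1) scale, with limma and a null of at most 2-fold. In this test 43 of the 56 were called higher than the library median, 3 were called lower and 10 were not called, and the median difference was 3.22 log2 units. Over all tested genes 26% were called higher and 22.3% lower, with a median difference of -0.01. With no filter on low values, none of the 3 lower calls was made. Against the 75th percentile of each library in place of the median, 35 of the 56 were called higher and 8 lower, beside 11.1% and 51.7% of all tested genes. The list was drawn up by name, with earlier results of these data known. The counts for it and for its role groups therefore describe the chosen genes and no more.

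**Figure D1:**
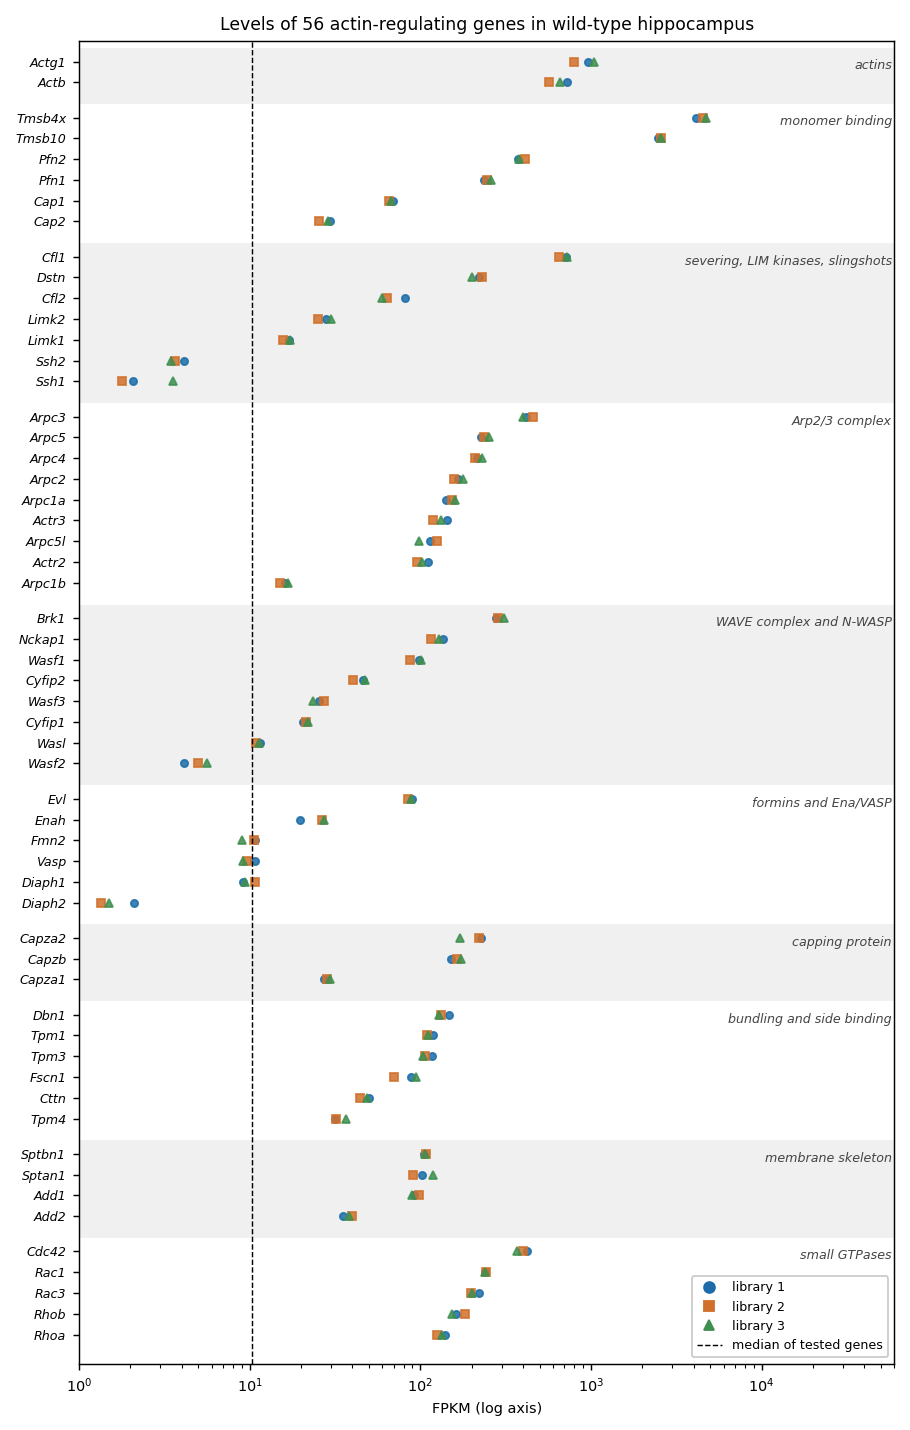
Level of each of the 56 genes in FPKM (log axis), with 1 symbol per library and genes grouped by role. The dashed line is the median of all tested genes. The thymosins lie farthest right in all 3 libraries, and Wasf2, Ssh1, Ssh2 and Diaph2 lie left of the line in all 3.

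Actg1 was the higher of the cytoplasmic actins in each library. Actb, on the minus strand of chromosome 5 (142903115 to 142906754, GRCm38), had 721, 569 and 655 FPKM in libraries 1, 2 and 3. Actg1, on the minus strand of chromosome 11 (120345690 to 120348542), had 962, 800 and 1042 FPKM. The values of both genes did not overlap, and both were lowest in library 2. Actb stood at 0.696 ± 0.0620 times Actg1 (SD, n = 3), a difference of -0.53 log2 units (SE 0.180) that was not shown to exceed 2-fold (limma, Benjamini-Hochberg adjusted p = 1.00), though it was lower in 3 of 3 libraries. Both genes ranked high in the table, Actg1 at 85 and Actb at 162 by mean. The muscle actin genes were scarce beside them. Acta1, the skeletal muscle actin gene, was at 5.21, 6.79 and 5.36 FPKM. Acta2, the smooth muscle gene that marks vessel walls, was at 2.63, 5.18 and 5.02 FPKM, lowest in library 1. Actg2 was listed at 0, 0 and 0.99 FPKM and Actc1 at 0 in all 3 libraries. Actb and Actg1 together made up 99.3% ± 0.202 of the summed FPKM of the 6 actin genes. Of the 100-base windows of the Actb transcript 1.1% also occurred in other annotated genes, while 51.1% of those of Actg1 occurred in pseudogenes. The pseudogene with most of them, Gm12715, was listed at 0 in all 3 libraries, and how reads shared with it were assigned is not given in the sources used here.

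Among proteins that bind actin monomers, the thymosins were far above the rest. Tmsb4x, which encodes the sequestering peptide thymosin β4 and lies on the X chromosome, had 4117, 4540 and 4717 FPKM. Tmsb10, the thymosin β10 gene on chromosome 6, had 2473, 2570 and 2573 FPKM. Tmsb4x ranked 5 and Tmsb10 ranked 17 in the whole table, and no library brought their values near each other. The ratio of Tmsb4x to Tmsb10 was 1.75 ± 0.0849, or 0.81 log2 units (SE 0.0913), higher in 3 of 3 libraries but within the 2-fold null (limma adjusted p = 0.958). Summed thymosin FPKM was 3.91, 5.19 and 4.29 times summed actin FPKM in libraries 1, 2 and 3. The thymosins alone made up 46.4% ± 1.75 of the summed FPKM of the 56 genes. These transcripts are short, at 768 bases for Tmsb4x and 690 bases for Tmsb10. The part of the bases taken off each length in the ratio of thymosins to actins was not tested. Tmsb10 shared 21.5% of its 100-base windows with other annotated genes.

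The profilin genes followed. Pfn1, the widely expressed profilin, had 235, 244 and 259 FPKM. Pfn2, the form enriched in brain, had 373, 413 and 379 FPKM, above Pfn1 in each library. Pfn2 carried 61.2% ± 1.69 of profilin FPKM, and Pfn1 stood at 0.635 ± 0.0452 times Pfn2, which was within the 2-fold null (-0.66 log2 units, SE 0.108, limma adjusted p = 1.00, lower in 3 of 3 libraries). The cyclase-associated proteins, which help recharge monomers, were lower. Cap1 had 69.2, 65.3 and 67.1 FPKM, and Cap2 had 29.5, 25.5 and 28.7 FPKM. Cap1 was 2.42 ± 0.129 times Cap2 and missed the threshold (1.24 log2 units, SE 0.108, adjusted p = 0.0549 by limma), being higher in 3 of 3 libraries. With a pseudocount of 0.1 the same pair was called (adjusted p = 0.0473).

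Of the genes that cut and disassemble filaments, Cfl1 dominated. Cfl1, the non-muscle cofilin gene, had 718, 646 and 726 FPKM. Cfl2, known as the muscle form but also present in brain, had 81.3, 64.2 and 59.96 FPKM, highest in library 1. Dstn, the gene of destrin or actin-depolymerizing factor, had 220, 230 and 201 FPKM. The groups of values were separate, and Cfl1 held 70.9% ± 2.44 of their summed FPKM. Cfl1 was 10.3 ± 1.65 times Cfl2, by 3.34 log2 units (SE 0.234), and was called higher (limma adjusted p = 2.3e-23; 4.17% of all tested genes were called higher than Cfl2). That p is small because the spread of Cfl2 is shared by every difference in the fit; with the spread of each gene taken on its own level the adjusted p was 4.83e-05. Cfl1 was 3.23 ± 0.401 times Dstn, by 1.68 log2 units (SE 0.122, adjusted p = 0.000747 by limma), in the same direction in all 3 libraries, and 1.5% of tested genes were called higher than Dstn. The starts of the cofilin coding sequences are shown because Cfl1 and Cfl2 differed most in level within the family while 71.5% of their coding positions were identical, with capitals at the bases that differ.
Cfl1: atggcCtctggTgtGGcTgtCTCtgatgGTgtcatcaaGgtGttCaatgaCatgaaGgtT
Cfl2: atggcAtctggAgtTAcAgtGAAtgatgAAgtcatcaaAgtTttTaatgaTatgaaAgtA

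The enzymes that switch cofilin were scarce beside cofilin itself. Limk1 and Limk2 encode LIM kinases, which phosphorylate cofilin and stop it from binding actin. Limk1 had 17.0, 15.6 and 17.3 FPKM and Limk2 had 28.2, 25.2 and 30.1 FPKM. Limk1 was 0.599 ± 0.0235 times Limk2, within the 2-fold null (limma adjusted p = 1.00, lower in 3 of 3 libraries). The slingshot phosphatases remove that phosphate, and their genes were among the lowest of the 56. Ssh1 had 2.06, 1.78 and 3.54 FPKM, resting on about 63, 60 and 171 fragments. Ssh2 had 4.12, 3.65 and 3.44 FPKM. Ssh1 and Ssh2 overlapped in range, and Ssh1 was below Ssh2 in 2 of 3 libraries. Both were called lower than the library median, Ssh1 by -1.75 log2 units (SE 0.167, limma adjusted p = 0.00838) and Ssh2 by -1.26 (SE 0.0897, adjusted p = 0.0355). The call of Ssh2 was lost without any replicate in turn, with adjusted p of 0.0549 without replicate 1, 0.112 without replicate 2 and 0.144 without replicate 3.

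The Arp2/3 complex nucleates branched filaments and joins the actin-related proteins Arp2 and Arp3 with 5 further subunit positions. The position of p40 can be filled by Arpc1a or Arpc1b, and that of p16 by Arpc5 or Arpc5l. Of the 9 genes, 8 were called higher than the library median, beside 26% of all tested genes, and Arpc1b was not called. Actr2, the Arp2 gene, had 112, 95.2 and 103 FPKM. Actr3, the Arp3 gene, had 143, 118 and 132 FPKM. The order was the same in every library, as the ratio of Actr2 to Actr3 was 0.780, 0.803 and 0.782 in libraries 1, 2 and 3. That ratio averaged 0.788 ± 0.0130 and was within the 2-fold null (limma adjusted p = 1.00). Arpc2, a structural core subunit, had 167, 158 and 177 FPKM, and Arpc4, its partner in the core, had 214, 210 and 229 FPKM. Arpc3 was the highest, at 418, 457 and 398 FPKM.

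One paralog carried most of the p40 signal. Arpc1a had 142, 153 and 160 FPKM. Arpc1b, the form known for its role in blood and immune cells, had 16.1, 15.0 and 16.7 FPKM. Arpc1a made up 90.5% ± 0.640 of the pair and was 9.51 ± 0.699 times Arpc1b, by 3.17 log2 units (SE 0.1001, limma adjusted p = 3.39e-05), in the same direction in all 3 libraries. Of all tested genes 18.4% were called higher than Arpc1b. The p16 position was more mixed. Arpc5 had 227, 235 and 252 FPKM and Arpc5l had 114, 125 and 98.8 FPKM, a ratio of 2.14 ± 0.358 that was not shown to exceed 2-fold (limma adjusted p = 0.363). With paralogs summed, the highest subunit position was 3.74, 4.80 and 3.87 times the lowest in libraries 1, 2 and 3, Arpc3 being the highest and Arp2 the lowest each time. Arpc1b shared 31.1% of its 100-base windows, mostly with Pdap1, which had 69.8, 60.2 and 44.8 FPKM, and Actr3 shared 22.4%, with 2 pseudogenes.

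**Figure D2:**
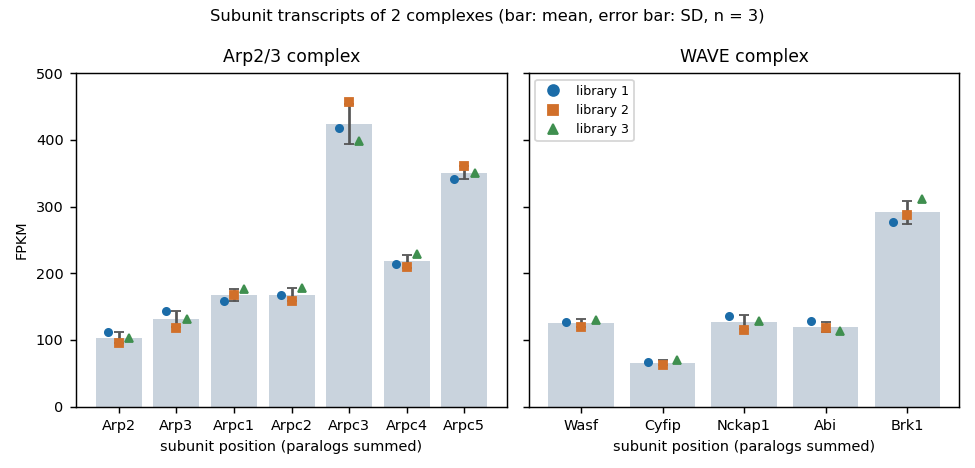
Summed FPKM for each subunit position of the Arp2/3 complex (left) and the WAVE complex (right), with paralogs added together. Bars are means, error bars SD over 3 libraries and symbols the single libraries. Arpc3 (424 FPKM) and Brk1 (292 FPKM) are the highest positions, and Arp2 (103 FPKM) and Cyfip (65.9 FPKM) the lowest.

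The WAVE complex relays signals of Rac to Arp2/3 and holds a WAVE protein, a Cyfip, Nckap1, an Abi and Brk1. Wasf1, the WAVE form abundant in neurons, had 98.0, 86.9 and 100.4 FPKM. Wasf3 had 25.4, 27.3 and 23.5 FPKM, and Wasf2, the form prominent in many non-neuronal cells, had 4.14, 4.99 and 5.66 FPKM. The 3 genes did not overlap in any library, and Wasf1 held 75.8% ± 2.47 of their summed FPKM. Wasf1 was 19.6 ± 3.52 times Wasf2, by 4.02 log2 units (SE 0.185, limma adjusted p = 1.22e-15), and 40.8% of tested genes were called higher than Wasf2. With the spread of each gene on its own level the adjusted p was 3.87e-05. Wasf1 was 3.77 ± 0.547 times Wasf3, by 1.86 log2 units (SE 0.130, limma adjusted p = 0.000488), and 12.1% of tested genes were called higher than Wasf3. Wasl encodes N-WASP, the activator of Arp2/3 that answers to Cdc42, and had 11.6, 10.9 and 11.3 FPKM, near the library median. Wasf1 was 8.44 ± 0.423 times Wasl (2.97 log2 units, SE 0.0890, limma adjusted p = 3.41e-05), and 24.4% of tested genes were called higher than Wasl.

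The other WAVE subunits were spread over a similar range. Cyfip2 had 46.2, 40.2 and 47.6 FPKM. Cyfip1, a partner of the fragile X protein, had 20.4, 21.4 and 22.0 FPKM. Cyfip2 was above Cyfip1 in each library, at 2.10 ± 0.197 times, a difference not shown to exceed 2-fold (1.03 log2 units, SE 0.103, limma adjusted p = 0.579). Cyfip1 shared 20% of its 100-base windows with other genes, mostly with Nipa2. Nckap1, the large scaffold subunit, had 136, 115 and 128 FPKM. Brk1, the smallest subunit, had 277, 287 and 311 FPKM and was the highest position of the complex in each library. Brk1 exceeded the summed Cyfip FPKM, the lowest position, by 4.16, 4.66 and 4.47 times in libraries 1, 2 and 3.

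Formins and Ena/VASP proteins elongate unbranched filaments. Of these 6 genes, 4 (Diaph1, Fmn2, Enah and Vasp) were not called as more than 2-fold from the library median, beside 6886 of 13337 tested genes. Against a null of no difference, Enah was called higher (1.16 log2 units, limma adjusted p = 0.00054). Diaph1, the gene of the mDia1 formin that acts downstream of RhoA, had 9.18, 10.7 and 9.38 FPKM. Diaph2 had 2.11, 1.35 and 1.5 FPKM, the lowest mean of the 56, on about 27, 19 and 31 fragments. Diaph1 was 6.18 ± 1.80 times Diaph2 (2.03 units on the log2(FPKM + 1) scale, SE 0.193, limma adjusted p = 4.48e-06). That scale understates the change of low genes. In the same fit 64.7% of tested genes were called higher than Diaph2. With limma's spread of each gene on its own level the adjusted p for this pair was 0.00105. Diaph2 was called lower than the library median, by -2.11 log2 units (SE 0.111, limma adjusted p = 0.000424). Fmn2, a formin of neurons and oocytes, had 10.8, 10.7 and 9.06 FPKM. Evl was the leading Ena/VASP gene, at 90.0, 84.2 and 88.0 FPKM. Enah, also called Mena, had 19.8, 26.7 and 27.2 FPKM, lowest in library 1. Vasp had 10.7, 9.71 and 9.17 FPKM. Evl held 71.7% ± 2.56 of the family and did not overlap the others. Evl was 3.64 ± 0.779 times Enah (1.80 log2 units, SE 0.244, limma adjusted p = 0.0011; 11.1% of tested genes were called higher than Enah). Evl was 8.88 ± 0.637 times Vasp (3.03 log2 units, SE 0.106, limma adjusted p = 1.95e-05; 26.5% of tested genes were called higher than Vasp).

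Capping protein blocks the growing end as a pair of an α and a β chain. Capzb, the β chain gene, had 151, 165 and 173 FPKM. Capza2 had 226, 219.9 and 171 FPKM, lowest in library 3, and Capza1 had 27.2, 28.6 and 29.7 FPKM. The α chains summed to 1.68, 1.51 and 1.16 times Capzb in libraries 1, 2 and 3. Capza2 was 7.24 ± 1.34 times Capza1 (2.80 log2 units, SE 0.136, limma adjusted p = 6.02e-05), and 10.9% of tested genes were called higher than Capza1. Capza1 shared 63.1% of its 100-base windows with other annotated genes, the largest share of the 56, and 60.5% were found in the pseudogene Gm3608. Capza2 shared none, and the part of shared windows in the ratio was not tested.

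Among proteins that bundle filaments or bind along them, all 6 genes were called higher than the library median, beside 26% of all tested genes. Against the 75th percentile, Cttn (0.74 log2 units) and Tpm4 (0.24) lost the call (limma adjusted p = 1.00 for both). Dbn1 encodes drebrin, which coats filaments in dendritic spines and growth cones, and had 147, 132 and 129.5 FPKM. Fscn1, the fascin gene of filopodial bundles, had 87.9, 69.7 and 93.9 FPKM, lowest in library 2. Cttn, the gene of cortactin, which stabilizes branches, had 50.1, 44.3 and 48.8 FPKM. Tropomyosins run along filaments and decide which other proteins can bind. Tpm1 had 119, 109.9 and 111 FPKM, Tpm3 had 116, 106 and 104 FPKM, and Tpm4 had 31.8, 32.1 and 36.7 FPKM. Tpm1 and Tpm3 overlapped, with a ratio of 1.04 ± 0.0271, within the 2-fold null (limma adjusted p = 1.00). Tpm1 was 3.39 ± 0.350 times Tpm4 (1.73 log2 units, SE 0.123, limma adjusted p = 0.000845), and 9.04% of tested genes were called higher than Tpm4. Tpm3 shared 45.7% of its 100-base windows with the related gene Tpm3-rs7, which was listed at 0, 0 and 0.36 FPKM.

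The spectrin and adducin genes build the lattice of short actin rings beneath the membrane of axons. Sptan1, the αII-spectrin gene, had 102, 90.4 and 119 FPKM. Sptbn1, the βII-spectrin gene, had 105, 108 and 106 FPKM. The values overlapped, and the ratio of Sptan1 to Sptbn1 was 0.976 ± 0.144, lower in 2 of 3 libraries (limma adjusted p = 1.00). Add1, the α-adducin gene, had 91.4, 98.6 and 89.8 FPKM, and Add2, the β-adducin gene, had 35.1, 39.8 and 38.0 FPKM. Add1 was 2.48 ± 0.121 times Add2 (1.29 log2 units, SE 0.107, limma adjusted p = 0.0279), and 8.1% of tested genes were called higher than Add2. That call was lost without any replicate in turn (adjusted p 0.0696, 0.0748 and 0.0872 without replicates 1, 2 and 3) and with the spread of each gene on its own level (adjusted p 0.0538).

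The small GTPases that direct these proteins were all called higher than the library median, 5 of 5, beside 26% of all tested genes. Cdc42, which steers filopodia, had 419.8, 398 and 369 FPKM. Rac1, which drives sheet-like protrusions through WAVE, had 240.1, 243 and 239.9 FPKM. Rac3, a form of Rac enriched in the nervous system, had 219.7, 199 and 202 FPKM, just below Rac1 in each library. Rac1 was 1.17 ± 0.0662 times Rac3, within the 2-fold null (0.22 log2 units, SE 0.0967, limma adjusted p = 1.00). Rhoa, which promotes contraction and formin activity, had 140.4, 126 and 135 FPKM. Rhob, an endosomal relative, had 162, 182 and 153 FPKM. Rhoa and Rhob did not overlap, and Rhoa was 0.813 ± 0.108 times Rhob, within the 2-fold null (-0.31 log2 units, SE 0.139, limma adjusted p = 1.00, lower in 3 of 3 libraries). Rhoa was 0.338 ± 0.0251 times Cdc42, by -1.56 log2 units (SE 0.107, limma adjusted p = 0.00121), but 95.5% of tested genes were called lower than Cdc42. Rac1 shared 54.4% of its 100-base windows with the neighbouring gene Daglb, and Rhoa 15.7% with 3 genes, while Cdc42, Rac3 and Rhob shared none.

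In all, 13 of the 26 pairs of related genes differed by more than 2-fold under limma. Each of the 13 had the same sign in 3 of 3 libraries, which rests on the same values as the call and adds no support to it. In 12 of the 13 the first gene was higher, the exception being Rhoa against Cdc42. The order within each pair was set by hand, so that count describes the order and no more. The share of called pairs among other pairs of tested genes was not computed. The 13 pairs not called included Actb and Actg1, Tmsb4x and Tmsb10, Pfn1 and Pfn2, and Rac1 and Rac3. Missing the 2-fold null does not show that such genes were equal.

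**Figure D3:**
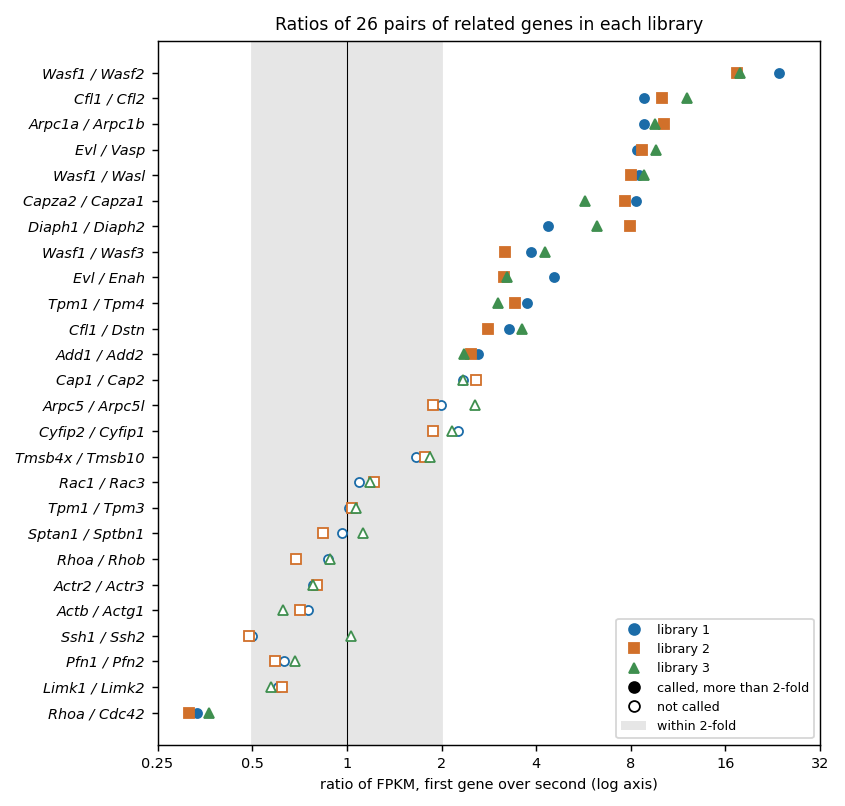
Ratio of FPKM, first gene over second, for the 26 pairs in each library (log axis). Filled symbols mark the 13 pairs called as more than 2-fold apart and the grey band marks ratios within 2-fold. Wasf1 over Wasf2 (19.6) is the highest mean ratio and Rhoa over Cdc42 (0.338) the lowest.

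Of the 56 genes, 38 shared no 100-base window with another annotated gene, 18 shared at least 1, and 7 shared over 20%. The sources used here do not say how shared reads were counted, and the part of sharing in these levels was not tested.

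Short transcripts stood higher. Across the 56 genes, level and transcript length were inversely ordered (Spearman correlation -0.715, a description over genes that share libraries and are not replicates). Over all tested genes the same measure was -0.209. Length is also the divisor of FPKM, and its part in these correlations was not tested. The median transcript length was 2697 bases for the 56 and 2953 bases for all tested genes, and GC content showed little order with level (Spearman correlation -0.034 for the 56 and 0.0615 for all tested genes). The thymosins and Brk1 were short and high, whereas the slingshot genes were long and low. The spectrins went against the order, with transcripts of 7585 bases for Sptan1 and 9107 bases for Sptbn1 and levels near 100 FPKM.

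**Figure D4:**
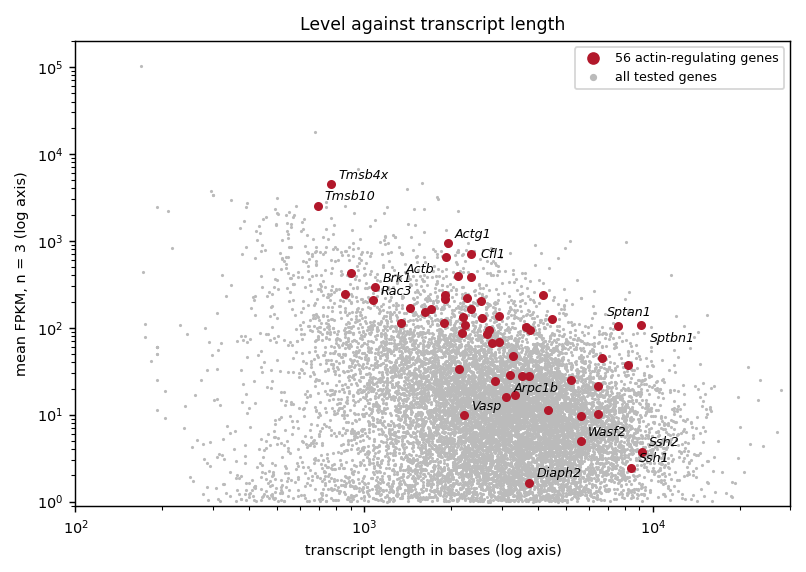
Mean FPKM over 3 libraries against transcript length in bases (both log axes), with the 56 genes in red and all tested genes in grey. The 56 run from Tmsb4x (4458 FPKM, 768 bases) at the upper left to Ssh1 (2.46 FPKM, 8436 bases) at the lower right.

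Between libraries the 56 genes varied little. The median SD of log2(FPKM + 1) over libraries was 0.0992 for the 56 and 0.175 for all tested genes. Restricted to genes at 10 FPKM or more it was 0.0932 for 50 of the 56 and 0.143 for 6816 genes. This cut does not match levels, as 53.6% of the 56 and 7.44% of all tested genes reached 100 FPKM. The part of level in the smaller spread was not tested. The coefficient of variation had a median of 6.96% for the 56 and 13.8% for all tested genes, and counting error alone was under 5% in 41 of the 56. Relative to its level Rac1 varied least of the 56, at 241 ± 1.55 FPKM (coefficient of variation 0.642%), followed by Sptbn1 at 106 ± 1.34 FPKM (1.26%). Both lie below the largest counting error estimated for these genes, 1.69% for Rac1 and 1.7% for Sptbn1. With 3 libraries such low values do not show that these genes were steadier than the others. Library 2 had the lowest value for 25 of the 56 genes (44.6%) and the highest for 11 (19.6%). Over all tested genes library 2 had the lowest value in 33.2% and the highest in 32.6%. The median deviation of the 56 from their means was 0.022, -0.038 and 0.017 log2 units in libraries 1, 2 and 3, against 0.011, -0.001 and -0.006 for all tested genes.

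No single library set the 5 genes with the largest SD apart. Ssh1 was highest in library 3 by 0.43 log2 units over its mean. Enah was low in library 1 (-0.28), and Cfl2 was high there (0.26). Fscn1 was low in library 2 (-0.25) and Capza2 was low in library 3 (-0.26). Actb and Actg1 followed among the 10 most variable, both lowest in library 2, at -0.18 and -0.22. Library 1 also had the highest sums of immature and hippocampal neuron markers and the lowest sums of choroid plexus and astrocyte markers. Library 2 had the highest red cell markers, at 679, 809 and 647 FPKM in libraries 1, 2 and 3. Interneuron markers summed to 774, 921 and 745 FPKM, with 4 of 5 highest in library 2. Oligodendrocyte markers summed to 921, 948 and 1049 FPKM, with 5 of 5 highest in library 3, which also had the highest value for 24 of the 56 genes (42.9%, against 30.9% of all tested genes). The part of such differences in the values of the 56 genes was not tested.

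**Figure D5:**
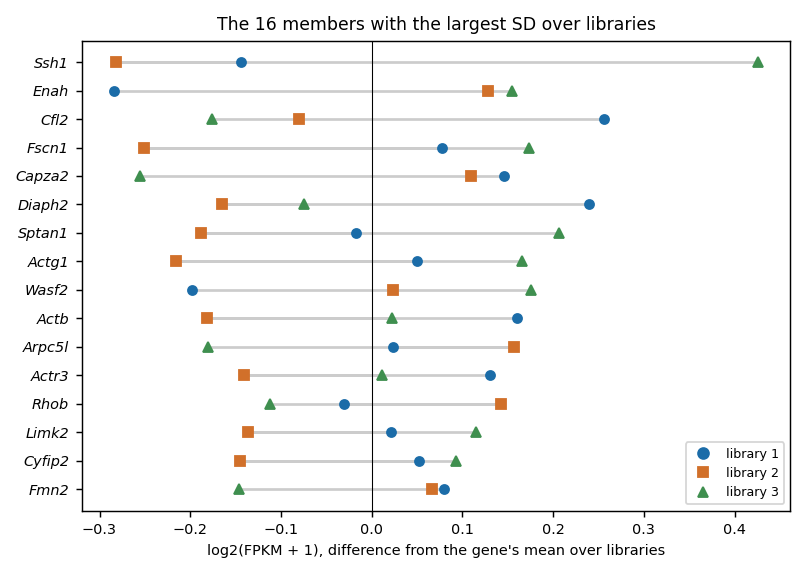
Difference of log2(FPKM + 1) in each library from the gene's mean over libraries, for the 16 of the 56 genes with the largest SD. Ssh1 spans the widest range, from -0.28 in library 2 to 0.43 in library 3, and Actb and Actg1 are both lowest in library 2.

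Of 62 other actin genes listed by role, also with earlier results of these data known, 60 passed the same filter on the mean. Of these, 29 were called higher than the library median, 3 lower and 28 not called, with a median difference of 1.01 log2 units. Among all tested genes 26% were called higher and 22.3% lower. Filament turnover genes were led by Wdr1, which speeds cofilin, at 77.7 ± 2.65 FPKM, Gmfb, which prunes Arp2/3 branches, at 75.3 ± 9.67 FPKM, and Coro1a, a coronin, at 64.3 ± 0.766 FPKM. In the nucleation list the WAVE subunit genes Abi1 and Abi2 stood at 65.4 ± 5.41 and 54.0 ± 2.41 FPKM, and Wipf3 at 39.3 ± 6.71 FPKM. Was, the blood cell relative of N-WASP, was at 1.03 ± 0.146 FPKM and called lower, as was Cobl, both named after their values were seen. The myosin light chain genes Myl6 and Myl12b were high, at 1053 ± 30.9 and 450.0 ± 17.7 FPKM, and Pls3, a bundling plastin gene, was at 44.5 ± 2.24 FPKM. Among membrane linkers, Ank2 stood at 89.5 ± 8.85 and Add3 at 41.3 ± 1.53 FPKM. The growth cone and membrane genes Basp1, Gap43 and Marcksl1 led the last list, at 673 ± 73.0, 374 ± 25.7 and 344 ± 39.1 FPKM, and each was highest in library 1.

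Serum response factor, which senses the pool of free actin monomers through its cofactor MRTF, binds the CArG box, and actin genes are known targets. RefSeq promoters of GRCm38.p6, covering 250 bases before to 50 after the start, were at hand for 49 of the 56 genes. The CArG box, whose pattern is the same on either strand, was found in 2 of the 49 (4.08%), Actg1 and Arpc4, and in 1.81% of 27025 genes. The Arpc4 match begins at position -250, the edge of the window. Genes of the 56 not named with a motif, Actb among them, lacked the letters or were not among the 49. The letters TATAAA on either strand were found in 3 of the 49 (6.12%), Cdc42, Fscn1 and Rhoa, and in 15.7% of all genes, and no gene of the 49 held both motifs. The Actg1 match is shown because Actg1 was the higher actin gene. It lies on the minus strand at chr11:120348556-120348605 and the box, in capitals, begins at position -90 from the start site.
Actg1 promoter: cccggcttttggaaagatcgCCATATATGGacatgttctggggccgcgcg
A match is a description of these letters and shows no binding, and a promoter without one says only that the letters are missing from this window.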

How the data were processed

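The authors deposited 1 table of FPKM values, per its file header, in which each library has a column whose number is that of the sample's title. Sequencing was paired-end with 150 bases per read, per the labels' protocols. The submitters' processing notes name Bowtie2 and the build GRCm38 (mm10). How fragments were counted, with which annotation and strand setting, is not given in the sources used here. The members and lists were chosen with earlier results of these data known.

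Levels were compared as log2(FPKM + 1) for the 13337 genes with a mean of at least 1 FPKM. Each gene minus its library's median, and each gene minus the second gene of a pair, was tested with limma 3.58.1 in R 4.3.3 (treat, null of at most 1 log2 unit, two-sided), with Benjamini-Hochberg adjustment over all tested genes and calls at 0.05. The fit was run on simulated data with independent noise. No simulated difference lay at the 2-fold null and no pairs were simulated, so error rates there were not checked. All members are given per library; other actin genes were named by the 3 highest means per list, and some results are not reported here.

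Depth was fitted so that low values of genes with 1 transcript of at least 800 bases became whole fragments. Of values up to 4 fragments, 94%, 92.7% and 91.9% were within 0.15 of a whole number in libraries 1, 2 and 3, the same values on which the depth was chosen. Fragment numbers cover counting error only. Transcript lengths, coding sequences and 100-base windows, compared on either strand over all annotated transcripts, came from GENCODE M21 on GRCm38, using the principal coding transcript. Python 3.11.15, pandas 2.3.3 and Biopython 1.88 were used.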

Additional observations from a re-analysis of the deposited data

How the results depend on the processing

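With 1 group, no samples of different groups could be paired. The main tests did pair genes inside each library, since they used differences taken there. The count of 43 higher genes was not moved by over 1.5 times by any alternative run. The count of 3 lower genes was 0 with no filter on low values and 8 against the 75th percentile in place of the median, since both move the level that genes are set against. Against no difference in place of a 2-fold null, 21 of 26 pairs were called. Leaving out each replicate in turn gave 12 called pairs each time, 40 to 43 higher genes and 2 lower genes each time. An alternative chosen after seeing the data, with the spread of each gene on its own level, called 12 of the 26 pairs. Its standard errors did not use the pairing of genes inside libraries.

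Genes near the level they were set against changed sign with it. With no filter, Wasf2, Diaph1, Fmn2 and Vasp stood at 0.094, 0.96, 1.01 and 0.97 log2 units. Against the 75th percentile, Cap2, Limk1, Limk2 and Arpc1b stood at -0.018, -0.73, -0.022 and -0.79, and Wasf3, Wasl, Cyfip1 and Enah at -0.15, -1.25, -0.39 and -0.20. Fmn2 stood at -0.068 without replicate 2 and at 0.040 without replicate 3, and Sptan1 against Sptbn1 at 0.059 without replicate 2. Calls of Cap2 and Limk2 were lost without replicate 1 (adjusted p 0.0613 and 0.0613) and without replicate 3 (0.0736 and 0.0933), and that of Capza1 without replicate 3 (0.0546). Depth limits Diaph2 most, with a counting error of up to 22.7%.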
